A study of Homo sapiens with 10 samples.

Results

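*EPHA8*, *CAMKV*, *KISS1R*, *NTRK2* and *SLC4A4* are 5 genes for membrane receptors, a kinase-like protein and an ion transporter. They were chosen by their readout, as genes among the largest falls after knockdown of *SMARCA4* or *SMARCA1*, from the 59386 genes counted in each library. All 5 were matched by symbol in all 10 libraries and all 5 passed the filter on low counts, which kept 16899 genes. Because they were selected on their falls against control, those falls are given as levels and differences with their errors and without a test.

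VCaP, a line of human prostate cancer cells, was collected for RNA 72 h after transfection of siRNA with Lipofectamine RNAiMAX. *SMARCA4*, the ATPase of SWI/SNF chromatin remodeling complexes, was targeted with siRNA A or siRNA B. *SMARCA1*, an ATPase of ISWI complexes, was targeted with siRNA A or siRNA C. Each siRNA was used at 30 pmol in 2 libraries, which gave 4 *SMARCA4* knockdown and 4 *SMARCA1* knockdown libraries beside 2 control libraries labelled as wild type. The siRNA or dose given to the controls is not given in the sources used here, and all groups are of the same cell line.

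Eph receptors are receptor tyrosine kinases that bind membrane-anchored ephrins on neighbouring cells and are best known for guiding axons. *EPHA8* encodes one of the A-class receptors. *CAMKV* encodes a vesicle-associated protein that resembles calmodulin-dependent kinases, lacks kinase activity and is known from neurons. *KISS1R* encodes the Gq/11-coupled receptor for kisspeptin, the peptide that controls the release of gonadotropin-releasing hormone. *NTRK2* encodes TrkB, the receptor tyrosine kinase for brain-derived neurotrophic factor and neurotrophin-4. *SLC4A4* encodes NBCe1, a sodium bicarbonate cotransporter that moves base and charge across the membrane and is best known from the kidney and the pancreatic duct.

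Total counts lay between 23898545 and 34667965 per library, and 3 counts corresponded to between 0.0865 and 0.126 CPM (counts scaled to library size, CPM, with TMM normalization in what follows). *SMARCA4* stood at 7.87% of its control mean in *SMARCA4* knockdown, and *SMARCA1* at 8.78% in *SMARCA1* knockdown, so both targets fell in the libraries that name them. *SMARCA1* was at 211% of its control mean in *SMARCA4* knockdown. Libraries of the same siRNA were further apart than sampling alone would put them, since their chi-square divided by the number of genes was 3.69 for *SMARCA1* siRNA C and up to 55.8 for *SMARCA1* siRNA A. All 11 prostate epithelial markers were detected and tested. Of 7 endothelial and immune markers, *PTPRC* and *CD3E* did not exceed 1 count and *CDH5* did not exceed 2 counts in any library, while 4 were tested and are described with the other markers. Of 24 tested interferon response genes, 24 rose in each knockdown. Their summed level was 345 and 352 CPM in the controls, 16473 to 43335 CPM in *SMARCA4* knockdown and 23189.5 to 44429.6 CPM in *SMARCA1* knockdown. This change moved with every fall described here, and its part in them was not tested. In bulk RNA, fewer cells expressing a gene and less RNA of it per cell cannot be told apart.

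In control cells the 5 genes spanned a wide range of abundance. Per kilobase of exon, the control level was 6.04 ± 1.27 CPM for *CAMKV* (SD, n = 2), 4.80 ± 0.228 for *SLC4A4*, 2.82 ± 0.119 for *KISS1R*, 0.483 ± 0.0518 for *EPHA8* and 0.168 ± 0.00716 for *NTRK2*. The median of all tested genes on this scale was 2.93. *CAMKV* and *SLC4A4* were thus above the median, at the 64.1 and 59.3 percentile, *KISS1R* was near it (49.4), and *EPHA8* (24) and *NTRK2* (12.1) were in the lower part. The length is that of all annotated exons joined, 20.35 kb for *NTRK2* and 1.67 kb for *KISS1R*, so genes with many isoforms read low on it. Counts were summed over isoforms, which leaves full-length and truncated TrkB unseparated.

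*EPHA8* was lowest with *SMARCA4* siRNAs and was lowered less with *SMARCA1* siRNAs. The gene lies at chr1:22563489-22603595 (GRCh38, plus strand). The control libraries held 58 and 76 counts, or 2.43 and 2.82 CPM. *SMARCA4* siRNA A left 0.349 and 0.503 CPM, and siRNA B 0.247 and 0.175 CPM. The smallest of these rests on 5 counts, with an exact 95% Poisson interval from 1.62 to 11.7 counts that covers counting error only. *SMARCA1* siRNA A left 1.84 and 1.54 CPM, and siRNA C 1.66 and 1.11 CPM. All 4 *SMARCA4* knockdown libraries lay below all 4 *SMARCA1* knockdown libraries, and these below both controls. The means were 2.62 ± 0.282 CPM in controls (SD, n = 2), 0.319 ± 0.142 in *SMARCA4* knockdown (n = 4) and 1.54 ± 0.313 in *SMARCA1* knockdown (n = 4). These equal 12.1% and 58.7% of the control.

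*CAMKV* had the same order at a higher level. It lies at chr3:49857988-49869935 on the minus strand. The controls held 18.6 and 25.1 CPM, the widest gap between control libraries among the 5 genes. *SMARCA4* siRNA A left 4.12 and 3.36 CPM and siRNA B 2.41 and 1.68 CPM. *SMARCA1* siRNA A left 15.6 and 12.5 CPM and siRNA C 15.2 and 13.3 CPM. No 2 of the 3 groups overlapped, with *SMARCA4* knockdown lowest. The mean fell from 21.8 ± 4.6 CPM in controls (n = 2) to 2.89 ± 1.07 (n = 4), 13.3% of control, and to 14.2 ± 1.48 (n = 4), 64.9% of control.

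*KISS1R*, at chr19:917287-921005 on the plus strand, was low in both knockdowns. It was at 4.85 and 4.57 CPM in the controls (116 and 123 counts). *SMARCA4* siRNA A left 0.943 and 1.13 CPM, and siRNA B 0.495 and 0.316 CPM, the last from 9 counts. *SMARCA1* siRNA A left 1.81 and 1.30 CPM, and siRNA C 1.18 and 1.77 CPM. The lowest *SMARCA1* knockdown library, at 1.18 CPM, was close to the highest *SMARCA4* knockdown library, at 1.13 CPM. Group means were 4.71 ± 0.199 CPM in controls, 0.721 ± 0.380 in *SMARCA4* knockdown (15.3% of control) and 1.52 ± 0.319 in *SMARCA1* knockdown (32.2%).

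*NTRK2* had the opposite order, with *SMARCA1* knockdown lowest. It lies at chr9:84668551-85027054 on the plus strand. The controls held 84 and 89 counts, or 3.51 and 3.31 CPM. *SMARCA4* siRNA A left 1.29 and 2.01 CPM, and siRNA B 0.896 and 1.30 CPM. *SMARCA1* siRNA A left 0.145 and 0.650 CPM, from 4 and 16 counts, and siRNA C 0.352 and 0.390 CPM, from 11 and 13 counts. All *SMARCA1* knockdown libraries were below all *SMARCA4* knockdown libraries, and these below both controls. The means were 3.41 ± 0.146 CPM in controls, 1.37 ± 0.465 in *SMARCA4* knockdown (40.3% of control) and 0.384 ± 0.207 in *SMARCA1* knockdown (11.3%).

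*SLC4A4*, at chr4:71062667-71572087 on the plus strand, had the most counts of the 5 genes in the control and *SMARCA4* knockdown libraries, fewer than *CAMKV* in the *SMARCA1* knockdown libraries, and shared the order of *NTRK2*. The controls held 45.4 and 42.5 CPM (1086 and 1143 counts). *SMARCA4* siRNA A left 11.2 and 20.2 CPM, and siRNA B 12.9 and 22.2 CPM. *SMARCA1* siRNA A left 4.01 and 7.92 CPM, and siRNA C 5.41 and 6.08 CPM. The lowest *SMARCA4* knockdown value, 11.2 CPM, was above the highest *SMARCA1* knockdown value, 7.92 CPM. Group means were 43.9 ± 2.09 CPM in controls, 16.6 ± 5.41 in *SMARCA4* knockdown (37.8% of control) and 5.86 ± 1.62 in *SMARCA1* knockdown (13.3%).

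**Figure D1:**
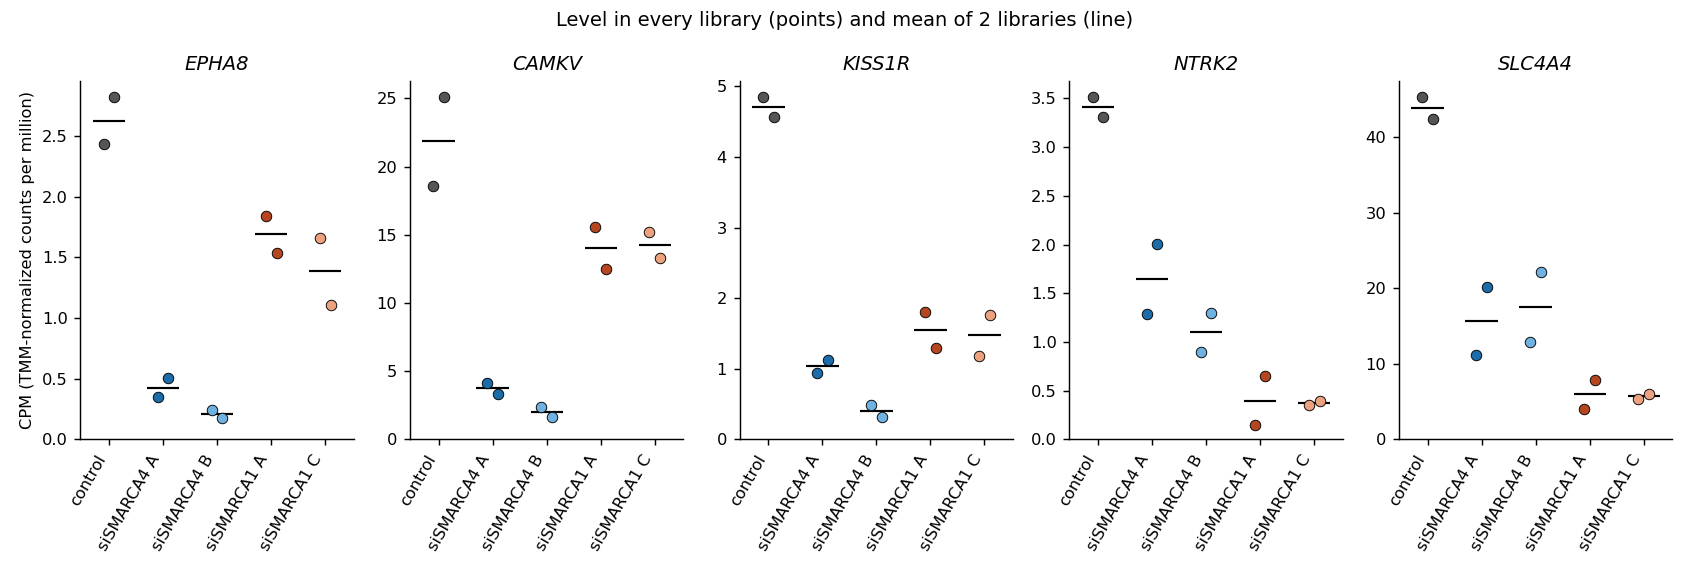
Level of each of the 5 genes (CPM, linear axis from 0, a scale of its own in each panel) in the control libraries and with each siRNA. Points are single libraries and the line is the mean of 2 libraries: *SMARCA4* siRNAs gave the lowest levels of *EPHA8*, *CAMKV* and *KISS1R*, and *SMARCA1* siRNAs the lowest levels of *NTRK2* and *SLC4A4*.

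Fitted across all genes, the 5 falls separated into a *SMARCA4*-weighted and a *SMARCA1*-weighted set. In *SMARCA4* knockdown, the log2 fold change against control was -3.10 (SE 0.28) for *EPHA8*, -2.98 (SE 0.18) for *CAMKV* and -2.84 (SE 0.24) for *KISS1R*. In the same knockdown it was -1.41 (SE 0.28) for *SLC4A4* and -1.34 (SE 0.32) for *NTRK2*. In *SMARCA1* knockdown the log2 fold change was -3.16 (SE 0.37) for *NTRK2* and -2.91 (SE 0.29) for *SLC4A4*, against -1.63 (SE 0.22) for *KISS1R*, -0.78 (SE 0.24) for *EPHA8* and -0.62 (SE 0.17) for *CAMKV*. Counted from the largest fall among 16899 genes, *EPHA8*, *CAMKV* and *KISS1R* ranked 13, 21 and 26 in *SMARCA4* knockdown, and *NTRK2* and *SLC4A4* ranked 26 and 37 in *SMARCA1* knockdown. In the knockdown where each fell less, the ranks were 384 for *KISS1R*, 531 for *SLC4A4*, 597 for *NTRK2*, 2217 for *EPHA8* and 3007 for *CAMKV*. All 5 genes were below both controls in all 8 knockdown libraries, which is given without a test since the genes were chosen for falls against these controls. The share of all tested genes with this pattern is not given, and the shares called lower are another measure. Of all tested genes, 22.3% were called lower in *SMARCA4* knockdown and 23.0% in *SMARCA1* knockdown (edgeR, adjusted p below 0.05).

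Leaving out any of 3 libraries moved some of these values by more than their error. Without the first library of *SMARCA1* siRNA A, the log2 fold change of *NTRK2* in *SMARCA1* knockdown was -2.78, and without the second it was -3.82. Without the second control library, the log2 fold change of *CAMKV* was -2.71 in *SMARCA4* knockdown and -0.37 in *SMARCA1* knockdown. In *SMARCA1* knockdown it was -0.80 without the first control library, a shift about as large as its error.

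**Figure D2:**
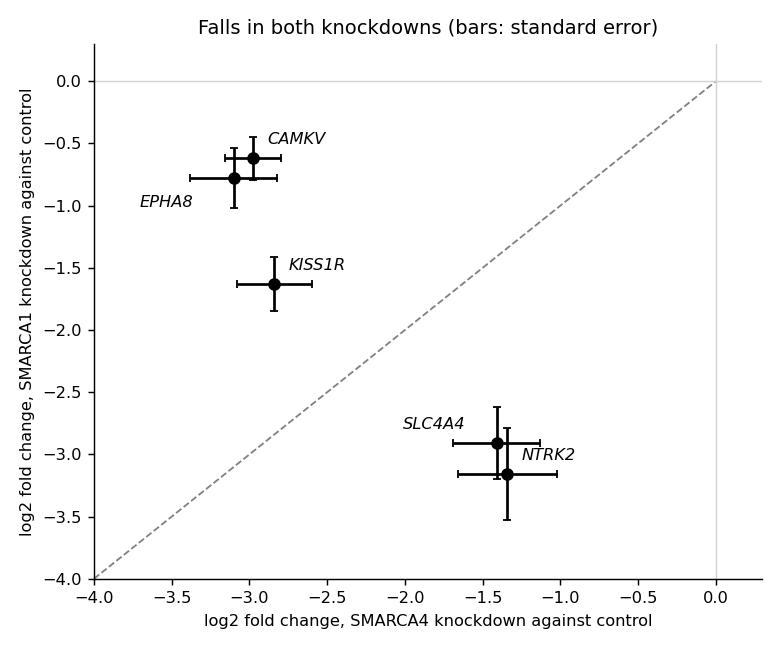
Log2 fold change against control in *SMARCA4* knockdown (x axis) and *SMARCA1* knockdown (y axis) for each gene, with standard errors as bars and equal change as the dashed line. *EPHA8*, *CAMKV* and *KISS1R* sit above the line, *NTRK2* and *SLC4A4* below it. Both axes share the control libraries, and the genes were chosen on these values.

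The knockdowns were also set against each other. This contrast equals the difference of the 2 fold changes given above, so its direction is not separate from them. The log2 difference of *SMARCA4* minus *SMARCA1* knockdown was -2.35 (SE 0.16) for *CAMKV*, -2.32 (SE 0.25) for *EPHA8* and -1.21 (SE 0.23) for *KISS1R*. It was 1.82 (SE 0.35) for *NTRK2* and 1.5 (SE 0.26) for *SLC4A4*. In fold terms, *CAMKV* was 5.10-fold and *EPHA8* 5.01-fold lower in *SMARCA4* knockdown, and *NTRK2* was 3.52-fold lower in *SMARCA1* knockdown. No library of 1 knockdown overlapped with the other for any of the 5 genes. The share of all tested genes without such overlap is not given, so this separation cannot be called unusual. These values carry no test, since a gene picked for its fall in 1 knockdown is more likely to be low there. Over all tested genes, 16.3% were called higher and 19.1% lower in *SMARCA4* than in *SMARCA1* knockdown. The value of *NTRK2* was 1.46 without the first and 2.52 without the second library of *SMARCA1* siRNA A. That of *SLC4A4* lay between 1.27 and 1.80 when 1 library was left out.

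Correlations of log2(CPM + 0.5) across the 10 libraries describe the same falls again. The genes were chosen on these falls, so the correlations are no separate support for the grouping. Pearson's r was 0.98 between *NTRK2* and *SLC4A4* and 0.98 between *EPHA8* and *CAMKV*. It was 0.88 between *EPHA8* and *KISS1R* and 0.86 between *CAMKV* and *KISS1R*. The other pairs lay between -0.07 and 0.44. The 10 points share the controls and the 5 conditions, and no p is given.

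Promoter sequence is shown for 4 of the 5 genes, to set the pairs that moved together side by side. Each is the 250 bases before a RefSeq transcription start (GRCh38.p14), read 5′ to 3′ on the strand of the gene. They lie at chr1:22563239-22563488 (*EPHA8*, plus strand), chr3:49869907-49870156 (*CAMKV*, minus strand), chr9:84669783-84670032 (*NTRK2*, plus strand) and chr4:71187009-71187258 (*SLC4A4*, plus strand). *NTRK2* has 4 and *SLC4A4* 5 such windows, and the one closest to the start of the canonical GENCODE transcript was taken (304 bases away for *NTRK2*, 0 for the others). Capitals mark matches, on either strand, to the motifs searched.
EPHA8: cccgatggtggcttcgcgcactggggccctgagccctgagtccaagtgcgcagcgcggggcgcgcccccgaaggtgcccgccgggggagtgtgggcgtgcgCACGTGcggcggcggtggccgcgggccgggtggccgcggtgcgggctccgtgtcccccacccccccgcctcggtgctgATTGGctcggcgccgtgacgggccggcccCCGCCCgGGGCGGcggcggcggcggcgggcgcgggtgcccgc
CAMKV: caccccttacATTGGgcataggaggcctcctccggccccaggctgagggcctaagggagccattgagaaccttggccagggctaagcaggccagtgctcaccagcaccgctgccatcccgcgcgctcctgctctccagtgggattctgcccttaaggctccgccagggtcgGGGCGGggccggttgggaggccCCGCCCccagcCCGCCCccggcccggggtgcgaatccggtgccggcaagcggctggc
NTRK2: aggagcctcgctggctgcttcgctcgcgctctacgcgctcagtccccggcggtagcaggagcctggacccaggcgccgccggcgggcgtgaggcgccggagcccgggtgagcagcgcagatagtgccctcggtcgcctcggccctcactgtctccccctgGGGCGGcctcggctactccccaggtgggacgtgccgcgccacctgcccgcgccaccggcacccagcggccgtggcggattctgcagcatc
SLC4A4: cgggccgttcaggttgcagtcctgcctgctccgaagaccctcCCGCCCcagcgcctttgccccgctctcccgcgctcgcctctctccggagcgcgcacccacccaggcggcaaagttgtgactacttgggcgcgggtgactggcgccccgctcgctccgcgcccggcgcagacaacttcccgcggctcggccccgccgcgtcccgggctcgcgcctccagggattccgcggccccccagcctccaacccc

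All 4 windows were rich in G and C, at 83.2% for *EPHA8*, 75.2% for *NTRK2* and *SLC4A4* and 71.6% for *CAMKV*, beside a median of 58% over 35116 windows of all genes. They held 42, 31, 33 and 17 CpG dinucleotides, beside a median of 11. The GC box GGGCGG matched 2 times in *EPHA8*, 3 times in *CAMKV* and 1 time each in *NTRK2* and *SLC4A4*, and is present in 42.6% of all windows. The CCAAT box (CCAAT) matched in *EPHA8* and *CAMKV*, 71 and 240 bases before the start, and is present in 32% of windows. The E-box CACGTG matched in *EPHA8* alone of the 4, 149 bases before the start, and is present in 6.34% of windows. The TATA box (TATAAA, 10.7% of windows), the AP-1 site (TGANTCA, 6.57%), the cAMP response element (TGACGTCA, 1.65%) and the ETS core (CCGGAA, 14.5%) had no match in these windows. No motif overlapped with another. A match describes the letters only.

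The design also allows a comparison of the siRNAs of 1 target with each other, which uses no control library. The genes were chosen on falls against control in these same siRNA libraries, so this comparison is not fully apart from the choice. For *SMARCA4*, siRNA B gave lower levels than siRNA A of *KISS1R*, *CAMKV* and *EPHA8*, without overlap between the libraries. The log2 difference of A minus B was 1.34 (SE 0.36, edgeR adjusted p = 0.055) for *KISS1R*, 0.86 (SE 0.25, adjusted p = 0.066) for *CAMKV* and 0.99 (SE 0.45, adjusted p = 0.21) for *EPHA8*. It was 0.60 (SE 0.41, adjusted p = 0.41) for *NTRK2* and -0.16 (SE 0.34, adjusted p = 0.83) for *SLC4A4*. None of the 5 passed the threshold of 0.05 in this test, which called 6.20% of all genes. Approximate 95% intervals from the standard errors ran from 0.63 to 2.04 for *KISS1R*, from 0.38 to 1.34 for *CAMKV* and from 0.11 to 1.87 for *EPHA8*. They ran from -0.21 to 1.41 for *NTRK2* and from -0.83 to 0.51 for *SLC4A4*, whose sign turned when 1 library was left out (-0.66 to 0.30). These intervals make no allowance for the small number of libraries and are narrower than the edgeR test implies. For *EPHA8* the unadjusted edgeR p was 0.051, so its interval above 0 does not set the difference apart from 0. With DESeq2, *KISS1R* (adjusted p = 0.039) and *CAMKV* (adjusted p = 0.018) passed, and over all alternatives their adjusted p ranged from 0.0077 to 0.27 and from 0.0043 to 0.26. Both also passed without the filter on low counts and without either library of *SMARCA1* siRNA A. *SMARCA4* itself was lower with siRNA B, at 6.26% of control against 9.49% with siRNA A (edgeR adjusted p = 0.048). Its part in the lower levels of the other genes was not tested.

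For *SMARCA1*, no difference between siRNA A and siRNA C was called for any of the 5 genes. The log2 difference of A minus C lay between -0.02 (SE 0.20) for *CAMKV* and 0.29 (SE 0.29) for *EPHA8*, with adjusted p between 0.64 and 0.97 for the 5 genes. The value of *NTRK2*, 0.06 (SE 0.60), averages siRNA A libraries that lay apart, at 0.145 and 0.650 CPM. It was 0.82 without the first and -1.31 without the second of them, and that of *SLC4A4*, 0.05 (SE 0.38), was 0.48 and -0.49. Leaving out 1 library also turned the sign for *CAMKV* (-0.17 to 0.15) and *KISS1R* (-0.17 to 0.40), and none of these values was called. The approximate interval, again narrower than the test implies, was shortest for *CAMKV*, from -0.42 to 0.38, and widest for *NTRK2*, from -1.11 to 1.23. This comparison called 0.0118% of all genes, the 2 genes *ACKR3* (-1.69) and *CEMIP* (-1.48), which were named after their values were seen.

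**Figure D3:**
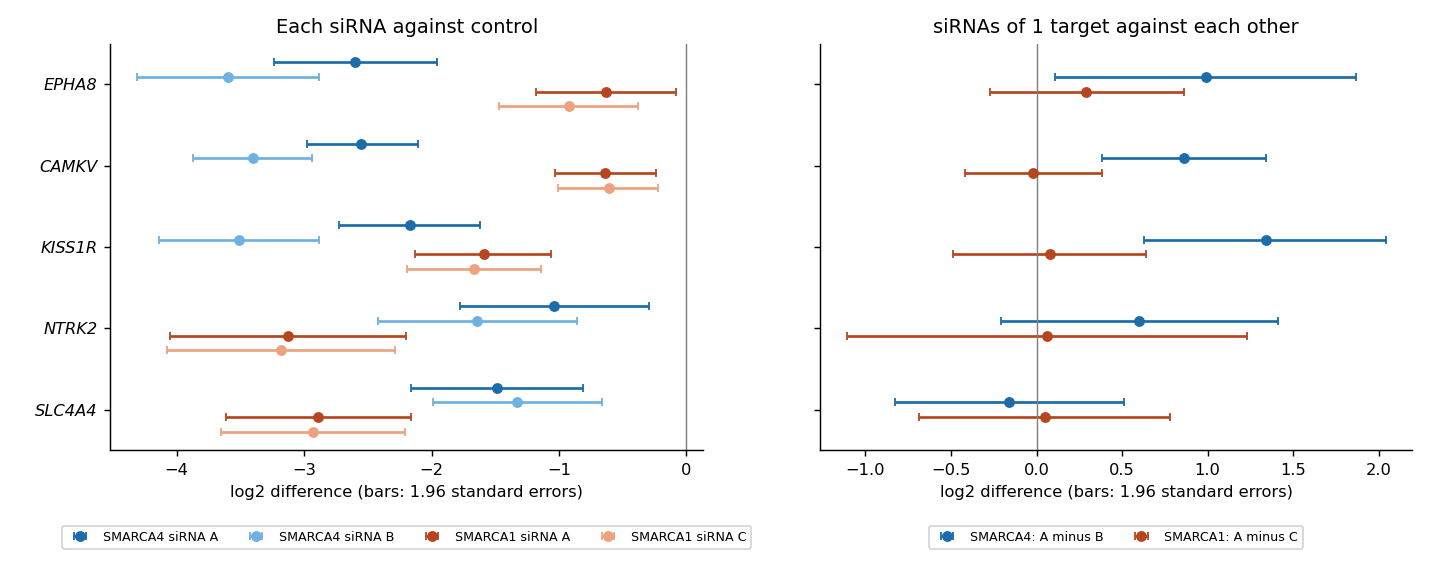
Log2 difference of each siRNA against control (left) and of the siRNAs of 1 target against each other (right), with approximate 95% intervals from the standard errors as bars. The bars are narrower than the edgeR test implies, and that of *EPHA8* between the *SMARCA4* siRNAs does not set it apart from 0. On the left, *SMARCA4* siRNA B lies furthest from 0 for *EPHA8*, *CAMKV* and *KISS1R*. On the right, the *SMARCA1* differences lie close to 0 for all 5 genes.

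Ordered by mean level, the 5 conditions gave the control highest for every gene. For *EPHA8* the control was followed by siRNA A and then siRNA C to *SMARCA1*, and these by siRNA A and then siRNA B to *SMARCA4*, and *KISS1R* had the same order. In both, neighbours in the order were apart except the *SMARCA1* siRNAs, whose libraries overlapped. *CAMKV* differed only in the order of those overlapping *SMARCA1* siRNAs. For *NTRK2* the control was followed by siRNA A and then siRNA B to *SMARCA4*, and these by siRNA A and then siRNA C to *SMARCA1*, and for *SLC4A4* the *SMARCA4* siRNAs changed places. Here the siRNAs of 1 target overlapped, and only the control and the targets were apart. The spread between libraries, as edgeR's biological coefficient of variation, was 24.4% for *SLC4A4* and 22.7% for *NTRK2*, and 15.3%, 15.1% and 14.6% for *EPHA8*, *KISS1R* and *CAMKV*. The median over all tested genes was 12.6%.

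The genes most like each of the 5 were found by Pearson's r over the 10 libraries among 12194 protein-coding genes, as a description. For *CAMKV* they were *DDN*, *CTPS1* and *PPIF* (r = 0.995, 0.995 and 0.994). *DDN* also had values near those of *CAMKV*, with a log2 fold change of -2.76 in *SMARCA4* knockdown, beside -0.71 in *SMARCA1* knockdown. For *EPHA8* they were *UMPS*, *NPM1* and *IMPDH2* (r = 0.990, 0.990 and 0.986), and for *KISS1R* *CGREF1*, *PDSS1* and *EXOSC2* (r = 0.987, 0.986 and 0.982). For *NTRK2* they were *MIGA1*, *SCAI* and *ARL10* (r = 0.995, 0.991 and 0.990), and for *SLC4A4* *FLVCR1*, *LRRN1* and *AIDA* (r = 0.992, 0.991 and 0.989). Apart from *DDN*, these genes had smaller log2 fold changes than the gene they resembled, such as *NPM1* at -1.02 and -0.33 and *MIGA1* at -0.84 and -1.70 in *SMARCA4* and *SMARCA1* knockdown.

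Most other Eph receptors did not fall with *EPHA8*. Of 10 tested, 5 rose and 2 fell in *SMARCA4* knockdown, and 6 rose and 2 fell in *SMARCA1* knockdown. Over all tested genes, 22.8% were called higher in *SMARCA4* knockdown and 23.8% in *SMARCA1* knockdown, so the 50% and 60% of Eph receptors that rose were above the background and the 20% that fell were near it. The median log2 fold change of the list was 0.81 and 0.94, beside 0.00 over all tested genes in *SMARCA4* knockdown. *EPHA2*, a receptor common in epithelial tumours, rose from 1.10 ± 0.131 CPM (SD, n = 2) to 4.97 ± 2.59 in *SMARCA4* knockdown (n = 4) and 11.4 ± 3.98 in *SMARCA1* knockdown (n = 4). Its log2 fold changes were 2.16 (SE 0.48, adjusted p = 0.0049) and 3.31 (SE 0.48, adjusted p = 0.00049). *EPHB6*, which lacks kinase activity, rose by 1.52 (SE 0.21, adjusted p = 0.00028) and 2.05 (SE 0.21, adjusted p = 8.7e-05) on the log2 scale, and *EPHB4* and *EPHB3* rose in both knockdowns. *EPHA1* rose in *SMARCA4* knockdown (0.66, adjusted p = 0.0011) and stood at 0.09 in *SMARCA1* knockdown (adjusted p = 0.51). *EPHA4* rose in *SMARCA1* knockdown (1.07, adjusted p = 0.0018) and stood at 0.49 in *SMARCA4* knockdown (adjusted p = 0.065, called under 2 of 5 other settings). *EPHA6* fell by 0.88 (adjusted p = 0.0044) and 1.33 (adjusted p = 0.00056), and *EPHB2* by 0.60 (adjusted p = 0.0026) and 0.51 (adjusted p = 0.0063), on the log2 scale. Without the second control library, *EPHA6* and *EPHB2* in *SMARCA4* knockdown and *EPHB2* in *SMARCA1* knockdown were no longer called, and without the first, *EPHB3* in *SMARCA1* knockdown was not.

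The ephrins, the ligands of these receptors, were all 8 tested. In *SMARCA4* knockdown 1 rose and 1 fell (12.5% each, beside 22.8% and 22.3% of all tested genes), and in *SMARCA1* knockdown 4 rose and 1 fell (50% and 12.5%, beside 23.8% and 23.0%). *EFNA1*, an A-class ligand, rose in both, by 0.76 (adjusted p = 0.0012) and 0.62 (adjusted p = 0.004) on the log2 scale. *EFNA2* fell by 1.5 (adjusted p = 0.003) in *SMARCA4* knockdown, from 1.30 ± 0.420 to 0.481 ± 0.200 CPM. *EFNA5* rose in *SMARCA1* knockdown, from 0.237 ± 0.0198 to 0.883 ± 0.112 CPM (log2 fold change 1.88, adjusted p = 0.0019), as did *EFNA4* (1.27, adjusted p = 0.0077). The B-class ligand *EFNB2*, at 313 CPM in the controls, fell by 0.33 in *SMARCA1* knockdown (adjusted p = 0.02). Leaving out 1 control library ended the call of *EFNA2* (control 2), *EFNA4* (control 1) and *EFNB2* (either, and either library of *SMARCA1* siRNA C). Without the second control library 1 ephrin was called in *SMARCA4* knockdown, and without the first 3 in *SMARCA1* knockdown.

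For *NTRK2*, several of the ligand and receptor genes around it were at or near 0. *BDNF* had at most 1 count in any library, *NTF4* at most 8 and *NTRK3* at most 6, and none of them was kept by the filter. Of the 4 genes of this list that were tested, *NTF3* stood at 1.29 ± 0.170 CPM in the controls and *NGFR* at 0.490 ± 0.0425 CPM, and neither passed the test. *SORT1*, a sorting receptor for neurotrophins, fell in *SMARCA4* knockdown by 0.51 (adjusted p = 0.029) on the log2 scale. *SORL1*, of the same family, fell by 0.51 (adjusted p = 0.033) and 0.48 (adjusted p = 0.043) in *SMARCA4* and *SMARCA1* knockdown. These calls were lost when either control library was left out. Over the 10 libraries left out in turn, the call of *SORT1* was kept in 6, that of *SORL1* in *SMARCA4* knockdown in 3 and that of *SORL1* in *SMARCA1* knockdown in 2. The last was also lost when only the knockdown and control libraries were fitted.

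The adaptors and kinases downstream of Trk receptors were largely expressed, with 30 of 31 tested. In *SMARCA4* knockdown 6 rose and 4 fell (20% and 13.3%, beside 22.8% and 22.3% of all tested genes). In *SMARCA1* knockdown 5 rose and 6 fell (16.7% and 20%, beside 23.8% and 23.0%). These shares were near or below the background. *GAB2*, a docking adaptor, rose by 1.48 (SE 0.18, adjusted p = 0.00014) in *SMARCA4* knockdown and stood at 0.08 (adjusted p = 0.75) in *SMARCA1* knockdown. *NRAS*, a Ras GTPase, fell in both, by 1.05 (adjusted p = 0.00021) and 1.30 (adjusted p = 9.3e-05) on the log2 scale. *SHC1*, an adaptor, rose in both, by 0.62 (adjusted p = 0.0016) and 0.80 (adjusted p = 0.00044). Without 1 library the called genes of the list numbered 5 to 17 and 4 to 19 in the 2 knockdowns, lowest without the first control library in each, and 7 in *SMARCA1* knockdown without the second. The 17 was reached without either library of *SMARCA1* siRNA A, and the 19 without its first.

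Of 14 tested feedback and target genes of ERK, the kinase these receptors activate, 5 rose and 1 fell in *SMARCA4* knockdown and 3 rose and 2 fell in *SMARCA1* knockdown. The shares were 35.7% and 7.14%, beside 22.8% and 22.3% of all tested genes, and 21.4% and 14.3%, beside 23.8% and 23.0%, so the rises in *SMARCA1* knockdown were near the background. *EGR1*, an immediate early transcription factor, rose by 2.68 (SE 0.19, adjusted p = 9.2e-06) and 2.87 (SE 0.19, adjusted p = 8.3e-06). *DUSP5*, a nuclear phosphatase for ERK, rose by 1.5 (adjusted p = 0.0053) and 3.02 (adjusted p = 0.00016), while *DUSP4*, of the same class, fell by 1.23 (adjusted p = 0.001) and 1.19 (adjusted p = 0.0012). *DUSP6* (1.07, adjusted p = 0.00083) and *SPRY4* (0.55, adjusted p = 0.012) rose in *SMARCA4* knockdown, *SPRY4* not without the second control library. In *SMARCA1* knockdown these stood at 0.25 (adjusted p = 0.26) and -0.15 (adjusted p = 0.42). Among the other receptor tyrosine kinases, 28 of 41 were tested, of which 9 rose and 6 fell in *SMARCA4* knockdown and 11 rose and 3 fell in *SMARCA1* knockdown. The shares were 32.1% and 21.4%, beside 22.8% and 22.3% of all tested genes, and 39.3% and 10.7%, beside 23.8% and 23.0%. *RET*, the receptor for GDNF-family ligands, rose from 0.780 ± 0.157 CPM to 14.9 ± 7.56 and 11.1 ± 3.59 CPM, by 4.11 (SE 0.36, adjusted p = 2.6e-05) and 3.75 (SE 0.36, adjusted p = 6.8e-05) on the log2 scale. *ROR1*, a receptor for Wnt5a, fell by 1.06 (adjusted p = 0.00013) and 0.74 (adjusted p = 0.0011). Without the second control library, 9 genes of this list were called in *SMARCA4* knockdown.

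**Figure D4:**
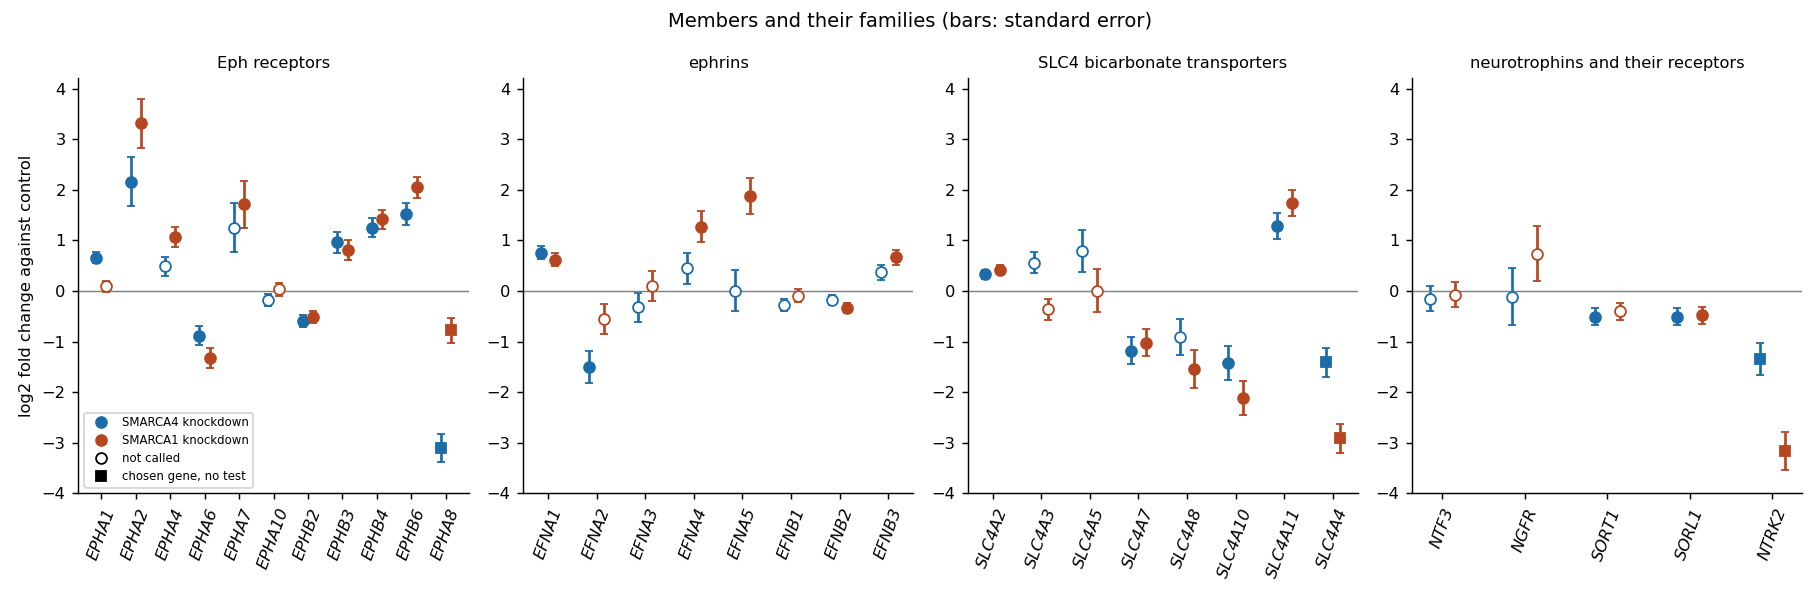
Log2 fold change against control for the tested genes of 4 families, in *SMARCA4* knockdown (blue) and *SMARCA1* knockdown (orange), with standard errors. Filled circles passed the test, open circles did not, and squares are the chosen genes, shown without a test. *EPHA8* lies below all 10 other tested Eph receptors in *SMARCA4* knockdown, and *SLC4A4* and *NTRK2* lie lowest in their families in *SMARCA1* knockdown. They were chosen among the largest falls, so this place follows from the choice.

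Calmodulin-dependent kinases, the family that *CAMKV* resembles, changed in both directions. Of 20 tested, 5 rose and 4 fell in *SMARCA4* knockdown, and 5 rose and 5 fell in *SMARCA1* knockdown, shares of 20% to 25% that are near the background. *CAMKK1*, which activates other kinases of this family, fell by 1.39 (SE 0.15, adjusted p = 9e-05) in *SMARCA4* knockdown, from 29.5 ± 1.52 to 11.3 ± 2.03 CPM, and stood at -0.35 (adjusted p = 0.089) in *SMARCA1* knockdown. *DCLK1*, a doublecortin-like kinase, fell by 1.51 (SE 0.24, adjusted p = 0.00085) in *SMARCA1* knockdown and stood at -0.17 (adjusted p = 0.6) in *SMARCA4* knockdown. *DAPK1*, a death-associated kinase, rose in both, by 1.37 (adjusted p = 0.0001) and 1.32 (adjusted p = 0.00016). Without a control library the called genes numbered 4 or 5 in *SMARCA4* knockdown, and 6 in *SMARCA1* knockdown without the first control.

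*KISS1R* was present without its ligand gene. *KISS1*, the gene for kisspeptin, had at most 4 counts in any library, and *GNRHR*, *NPFFR2* and *NPVF* had none, which allows up to 3 counts a library. Only 3 of 15 genes of related peptides and receptors were tested. *PRLHR*, the receptor for prolactin-releasing peptide, rose in *SMARCA4* knockdown from 0.0999 ± 0.0362 to 0.963 ± 0.690 CPM (log2 fold change 3.02, adjusted p = 0.013), a call that was lost without either control. *GALR2*, a galanin receptor, stood at -0.45 (adjusted p = 0.41) and 0.63 (adjusted p = 0.21). The genes through which Gq/11-coupled receptors signal and are desensitized were all 16 tested, of which 4 rose and 2 fell in *SMARCA4* knockdown and 6 rose and 6 fell in *SMARCA1* knockdown. The shares were 25% and 12.5%, beside 22.8% and 22.3% of all tested genes, and 37.5% each, beside 23.8% and 23.0%. Without either control library the latter 12 became 6. *RGS2*, which limits Gq signalling, rose from 2.08 ± 0.313 CPM to 16.7 ± 5.56 and 18.3 ± 4.76 CPM, by 3.01 (adjusted p = 0.00014) and 3.11 (adjusted p = 0.00015) on the log2 scale. *GRK6*, a receptor kinase, fell by 0.87 (adjusted p = 0.00027) and 0.52 (adjusted p = 0.005). *PLCB2*, a phospholipase that Gq activates, fell by 0.78 (adjusted p = 0.024) and 1.26 (adjusted p = 0.0025). The call of *GRK6* in *SMARCA1* knockdown was lost without the second control library, and that of *PLCB2* in *SMARCA4* knockdown without either, or without the first library of either *SMARCA4* siRNA.

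In the family of *SLC4A4*, 7 of 9 genes were tested beside it. In *SMARCA4* knockdown 2 rose and 2 fell (28.6% each, beside 22.8% and 22.3% of all tested genes), and in *SMARCA1* knockdown 2 rose and 3 fell (28.6% and 42.9%, beside 23.8% and 23.0%). *SLC4A10*, which carries sodium and bicarbonate, fell by 1.42 (SE 0.33, adjusted p = 0.006) and 2.11 (SE 0.33, adjusted p = 0.00078), from 25.4 ± 1.65 CPM to 9.62 ± 3.80 and 6.02 ± 2.71 CPM. *SLC4A7*, an electroneutral sodium bicarbonate cotransporter, fell by 1.18 (adjusted p = 0.0059) and 1.02 (adjusted p = 0.012), from 126 ± 14.1 CPM to 57.0 ± 14.7 and 62.1 ± 23.4 CPM. *SLC4A8* fell in *SMARCA1* knockdown (-1.54, adjusted p = 0.0067) and stood at -0.91 (adjusted p = 0.06) in *SMARCA4* knockdown, where 4 of 5 other settings, DESeq2 among them, called it. *SLC4A11* rose by 1.28 (adjusted p = 0.0028) and 1.74 (adjusted p = 0.00055), and the anion exchanger *SLC4A2* by 0.33 (adjusted p = 0.017) and 0.42 (adjusted p = 0.0052). *SLC4A3* stood at 0.56 (adjusted p = 0.055), called under 3 of 5 other settings, and -0.36 (adjusted p = 0.18). Without the first control library 1 gene of the family was called in *SMARCA4* knockdown and 2 in *SMARCA1* knockdown. *SLC4A2* and *SLC4A7* were no longer called in either knockdown, *SLC4A10* in *SMARCA4* knockdown and *SLC4A8* in *SMARCA1* knockdown. *SLC4A2* was also not called in *SMARCA4* knockdown without the second control library.

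Among carbonic anhydrases, sodium-proton exchangers and other partners in pH handling, 25 of 28 were tested. In *SMARCA4* knockdown 8 rose and 3 fell (32% and 12%, beside 22.8% and 22.3% of all tested genes), and in *SMARCA1* knockdown 9 rose and 7 fell (36% and 28%, beside 23.8% and 23.0%). *CA4*, a membrane-anchored carbonic anhydrase, rose from 0.355 ± 0.0297 CPM to 2.50 ± 1.07 and 1.04 ± 0.357 CPM, by 2.72 (adjusted p = 0.00013) and 1.49 (adjusted p = 0.0054). *CA8*, a related protein without the enzyme activity, fell from 5.19 ± 0.935 CPM to 2.13 ± 1.14 and 0.961 ± 0.493 CPM, with log2 fold changes of -1.36 (adjusted p = 0.0038) and -2.52 (adjusted p = 0.00021). Without the first control library 5 and 10 genes of the list were called, and *CA8* was not called in *SMARCA4* knockdown.

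Markers of other cell types were counted over the same libraries. The shares called stand beside 22.8% higher and 22.3% lower over all tested genes in *SMARCA4* knockdown. In *SMARCA1* knockdown they stand beside 23.8% and 23.0%. Of 11 prostate epithelial markers, 4 rose and 2 fell in *SMARCA4* knockdown (36.4% and 18.2%) and 2 rose and 5 fell in *SMARCA1* knockdown (18.2% and 45.5%). Their summed level was 10309 and 10448 CPM in the controls, 9879.7 to 10782 in *SMARCA4* knockdown and 8840.2 to 10284 in *SMARCA1* knockdown. *KRT8* rose by 1.66 (adjusted p = 0.00025) and 1.99 (adjusted p = 0.00014), and *FOLH1* fell by 0.86 (adjusted p = 0.00052) and 1.78 (adjusted p = 1.2e-05). Of 10 neural and glial markers 5 were tested. In *SMARCA4* knockdown 0 rose and 2 fell (0% and 40%), and in *SMARCA1* knockdown 1 rose and 3 fell (20% and 60%). Their summed level was 203 and 211 CPM in the controls, 174 to 206 in *SMARCA4* knockdown and 169 to 182 in *SMARCA1* knockdown, with *STMN2* and *S100B* at 0. *NEFL*, a neurofilament gene, fell by 1.15 (adjusted p = 0.00064) and 1.63 (adjusted p = 0.00012). *NEFM* fell in both (-0.85 and -1.23, adjusted p = 0.0037 and 0.00055), and *SNAP25* was called lower in *SMARCA1* knockdown alone (-1.36, adjusted p = 0.00049). *SYP* rose in *SMARCA1* knockdown (0.49, adjusted p = 0.012), and *MBP* was called in neither (0.23 and 0.05, adjusted p = 0.19 and 0.79). *EPHA8*, *CAMKV* and *NTRK2* are also known from neurons, and the part of these markers in their values was not tested. Fibroblast markers summed to 24 and 27.7 CPM in the controls, 18.4 to 35.1 in *SMARCA4* knockdown and 37.4 to 55.1 in *SMARCA1* knockdown. Of 6 tested, 1 rose and 0 fell in *SMARCA4* knockdown (16.7% and 0%), and 2 rose and 2 fell in *SMARCA1* knockdown (33.3% each). In *SMARCA1* knockdown *COL1A1* (1.21, adjusted p = 0.0035) and *LUM* (0.92, adjusted p = 0.0019) rose. *COL1A2*, from 2.02 ± 1.97 to 0.0160 ± 0.0320 CPM, and *COL3A1*, from 0.481 ± 0.266 to 0.0474 ± 0.0559 CPM, fell there (-7.38 and -4.56, adjusted p = 0.0069 and 0.0094). Endothelial and immune markers summed to 4.14 and 4.98 CPM in the controls, and to 5.51 to 18.8 and 11.6 to 25.5 CPM in the knockdowns. Of 4 tested, 1 rose and 1 fell in each knockdown (25% each, near the background). The called genes were *LYZ*, for lysozyme, which rose from 0.657 ± 0.194 CPM to 7.01 ± 5.91 and 16.9 ± 6.60 CPM (log2 fold changes 3.26 and 4.63, adjusted p = 0.0048 and 0.0007), and *CD14*, a monocyte receptor, which fell from 1.68 ± 0.193 CPM to 0.657 ± 0.108 and 1.07 ± 0.203 CPM (-1.36 and -0.67, adjusted p = 0.0011 and 0.035). The call of *CD14* in *SMARCA1* knockdown was kept in 1 of the 10 fits that left out a library and was lost with DESeq2 and without the filter, and that of *LYZ* in *SMARCA4* knockdown was lost without the second control. Their part in the levels of the 5 genes was not tested. Leaving out 1 library brought the called fibroblast markers to 0 in *SMARCA4* knockdown (the first control, the first library of either *SMARCA4* siRNA or the second of *SMARCA1* siRNA C) and to 2 in *SMARCA1* knockdown (the second control). It left 1 neural marker in *SMARCA4* knockdown (the first control) and 1 endothelial or immune marker (the second control in *SMARCA4* knockdown, any library but the second of *SMARCA1* siRNA A in *SMARCA1* knockdown).

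In the knockdown where each of the 5 genes fell most, none of the neighbours examined fell as far, which follows in part from the choice of the 5. In *SMARCA1* knockdown *CACNA2D2* (-1.15), near *CAMKV*, fell further than *CAMKV* (-0.62). Near *EPHA8*, which was at -0.78 (SE 0.24) there, *WNT4* was at -0.66 (SE 0.35, adjusted p = 0.14) and *EPHB2* at -0.51 (SE 0.12, adjusted p = 0.0063). *CACNA2D2* and *WNT4* were named after their values were seen. The nearest tested gene upstream of *EPHA8* was *ZBTB40*, 32.3 kb away, where *SMARCA4* knockdown gave 0.33 (adjusted p = 0.031) and *SMARCA1* knockdown 0.19 (adjusted p = 0.18). The nearest downstream, 107 kb away, was *EPHB2*, whose smaller falls are given above. *CAMKV* lies between *MST1R*, 17.1 kb upstream, at 0.30 (adjusted p = 0.25) and 1.05 (adjusted p = 0.002), and *TRAIP*, 1.41 kb downstream, at -0.40 (adjusted p = 0.035) and 0.08 (adjusted p = 0.65). *KISS1R* lies between *R3HDM4* (4.04 kb upstream, 0.33 and 0.38, adjusted p = 0.021 and 0.011) and *ARID3A* (4.78 kb downstream, 0.26 and 0.25, adjusted p = 0.039 and 0.042). *SLC4A4* lies between *DCK*, 31.8 kb upstream, at -0.19 (adjusted p = 0.23) and -0.69 (adjusted p = 0.0013), and *GC*, 169.6 kb downstream, which rose by 2.71 (adjusted p = 0.00019) and 2.91 (adjusted p = 0.00017). The neighbours of *NTRK2* were *RMI1*, 664 kb upstream, at -0.16 (adjusted p = 0.34) and -0.11 (adjusted p = 0.51), and *AGTPBP1*, 519 kb downstream, at -0.26 (adjusted p = 0.23) and -0.55 (adjusted p = 0.022).

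Within 500 kb, *CAMKV* had 35 tested genes, of which 11 rose and 5 fell in *SMARCA4* knockdown and 14 rose and 2 fell in *SMARCA1* knockdown. *KISS1R* had 39, of which 8 rose and 8 fell in *SMARCA4* knockdown and 13 rose and 1 fell in *SMARCA1* knockdown. *EPHA8* had 6, of which 2 rose and 2 fell in *SMARCA4* knockdown and 1 rose and 1 fell in *SMARCA1* knockdown. *SLC4A4* had 6, of which 1 rose and 2 fell in *SMARCA4* knockdown and 1 rose and 4 fell in *SMARCA1* knockdown. These counts stand beside 22.8% higher and 22.3% lower over all tested genes in *SMARCA4* knockdown, and 23.8% and 23.0% in *SMARCA1* knockdown. Among the 6 genes near *SLC4A4*, *MOB1B*, 40.2 kb upstream and named after its values were seen, fell in both, at -0.68 (adjusted p = 0.045) and -1.24 (adjusted p = 0.0026). The median log2 fold change of the neighbours lay between -0.18 and 0.27 in *SMARCA4* knockdown and between -0.55 (*SLC4A4*) and 0.25 in *SMARCA1* knockdown.

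**Figure D5:**
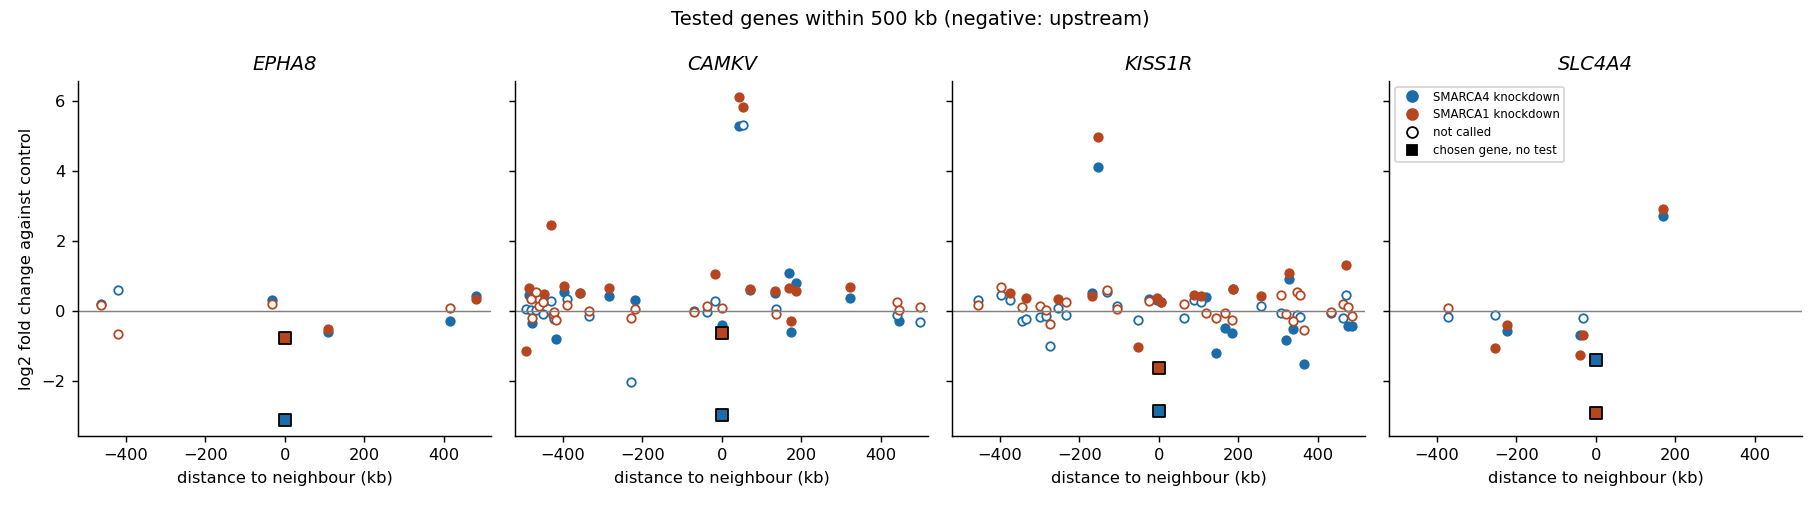
Log2 fold change against control of the tested genes within 500 kb of 4 of the 5 genes, by distance in the direction of transcription (negative is upstream). Filled circles passed the test, open circles did not, and squares at 0 are the chosen genes, without a test. Each square lies below all circles of its colour, except for *CAMKV* in *SMARCA1* knockdown, where 1 neighbour is lower. The squares were chosen among the largest falls, so their low place follows in part from the choice.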

How the data were processed

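RNA-seq libraries (poly(A) RNA, strand-specific, paired-end) were aligned by the authors with HISAT2 2.1.0 and counted with featureCounts 1.5.2 on GRCh38 with GENCODE genes, whose release is not given in the sources used here. The deposited values are raw counts per gene and were used as they stand. They were tested in R 4.3.3 with the quasi-likelihood test of edgeR 4.0.16, after its filter (minimum count 10, minimum total 15) and TMM normalization, with 5 groups in 1 fit and Benjamini-Hochberg adjustment over all 16899 genes. Standard errors were obtained by dividing each log2 fold change by the root of its F statistic. The fit was tested on simulated data. Nothing states that replicates came from separate cultures, so p-values measure the spread between libraries, which may be technical. The sources give no sequencing batch.

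The 5 genes and all gene lists were chosen with earlier results of these data known. Named list genes had the largest called rise or fall with a mean of at least 1 CPM, and in lists of at most 15 genes any tested gene could be named. Neighbours were the nearest tested genes, and the 3 most similar genes were taken by Pearson's r. Alternatives were DESeq2 1.42.0, RLE normalization, no filter, a replicate block, 1 knockdown with the controls alone, and leaving out each library. Leaving out libraries for the lists was chosen after seeing the data. Promoters were RefSeq windows, matched for 4 of 5 genes.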

Additional observations from a re-analysis of the deposited data

Results flagged for a closer look

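Some genes of the lists had effects that differed between *SMARCA4* and *SMARCA1* knockdown by a test of the difference itself (edgeR's quasi-likelihood test, adjusted p below 0.05 over all genes). Values are the log2 difference of *SMARCA4* minus *SMARCA1* knockdown. Among the Trk adaptors and ERK targets, *GAB2* was at 1.40, *DUSP5* at -1.52, *DUSP6* at 0.81 and *SPRY4* at 0.69. Among Eph receptors and ephrins, *EPHA1* was at 0.56, *EPHA2* at -1.15, *EPHA4* at -0.58, *EPHB6* at -0.53, *EFNA2* at -0.95, *EFNA4* at -0.82 and *EFNA5* at -1.87. The receptor kinase *ROR1* was at -0.31. Of the calmodulin-dependent kinases, *CAMKK1* was at -1.04 and *DCLK1* at 1.34. The galanin receptor *GALR2* was at -1.08 and the receptor kinase *GRK6* at -0.34. Among transporters and pH handling genes, *SLC4A3* was at 0.92, *CA4* at 1.23 and *CA8* at 1.16. The markers *FOLH1* and *NEFL* were at 0.92 and 0.49, and *LYZ* and *CD14* at -1.37 and -0.70. None of 10 Dixon tests on the 5 genes in the 2 knockdowns found a library far from the others. Each test had 4 libraries from 2 siRNAs and could hardly find one, so the libraries are not shown to be alike.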

How the results depend on the processing

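No called value changed direction under the alternatives run. Differences between siRNAs of the 5 genes that were not called did change sign when a library was left out, for *NTRK2*, *SLC4A4*, *KISS1R* and *CAMKV* between the *SMARCA1* siRNAs and for *SLC4A4* between the *SMARCA4* siRNAs. So did values that were not called for *NTF3*, *NGFR*, *GAB2*, *EFNA5* and *DCLK1* against control under some alternatives. Of the values of the 5 genes, 346 stayed on their side of the threshold or within their error, 8 came past the threshold (siRNA A against siRNA B, *KISS1R* and *CAMKV*) and 6 moved, all by leaving out a library. The number of genes called between the *SMARCA4* siRNAs was 1674 with DESeq2 and 2352 without the filter. Between the *SMARCA1* siRNAs it was 516 with DESeq2, 1276 without the filter and 16 with the replicate block. Leaving out 1 library gave 4413 to 9183 genes called in *SMARCA4* knockdown, 4430 to 9557 in *SMARCA1* knockdown, 3683 to 8072 between the knockdowns, 48 to 2907 between the *SMARCA4* siRNAs and 0 to 1927 between the *SMARCA1* siRNAs. The causes were not tested. Where edgeR called 0 genes, 1449 to 2517 had an unadjusted p below 0.05. A group left with 1 library was assumed to vary like the others. Libraries with the same replicate number had deviations that correlated from -0.103 to 0.362, highest between the *SMARCA4* siRNAs. The numbers were not taken to pair libraries in the main fit, and a replicate block was run as an alternative. With every siRNA the second library held more CPM of *NTRK2* and *SLC4A4* than the first, and in the controls it held less. The part of the replicate number in this was not tested. With the replicate block the *SMARCA4* siRNAs differed in 1301 genes, and *SLC4A3* and *SLC4A8* in *SMARCA4* knockdown and *CAMKK1* in *SMARCA1* knockdown were called. Counts under 20 for *NTRK2* in *SMARCA1* knockdown and *EPHA8* in *SMARCA4* knockdown limit the precision of those levels.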
